A study of Mus musculus with 13 samples.

Results

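The nuclear genes of the mitochondrial ribosome were followed across stem cells of the small intestine, their close descendants, differentiated villus epithelium and hair follicle cells of Lgr5 reporter mice. The members are the genes whose symbol in the annotation of the array starts with Mrpl or Mrps and a number, read from 1 probe set each. They number 73 of the 17097 genes with a probe set of their own, of which 48 belong to the large subunit, 24 to the small subunit, and 1, Mrps36, to neither. All mice were C57BL/6 and carried Lgr5-EGFP-ires-CreERT2, in which GFP is made where the Lgr5 locus is active. The groups were 3 arrays of GFP-sorted hair follicle cells, 3 of intestinal villus cells, 3 of intestinal GFPdim cells and 4 of intestinal GFPbright cells, and each sort combined 3 mice. The hair follicle arrays are titled GFPdim too, so that GFPdim below always means the intestinal cells. According to the methods RNA of all 4 populations was taken after FACS. Neither the gate for villus cells nor the age of the mice is given there. For its methylation data the paper used the whole villus epithelium, detached in a buffer with EDTA and EGTA. The cell sorting it describes is that of GFP cells. Whether the villus arrays hold gated cells or whole detached epithelium is thus not clear.

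The mitochondrial ribosome translates the few messages of the mitochondrial genome, all of which encode subunits of the respiratory chain and ATP synthase. Its own proteins are encoded in the nucleus, made in the cytosol and imported, and join a large subunit, which forms peptide bonds, and a small subunit, which reads the message. Some have a counterpart in bacterial ribosomes and others exist in mitochondria only. In the crypt, stem cells and their dividing descendants produce the absorptive enterocytes that cover the villus.

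The expression values are intensities on a linear scale, already corrected for background and normalized across arrays by the authors. Differences below are on the log2 scale, from limma fitted to all 13 arrays, with the standard error (SE) of the fit. A gene counts as called where its p, adjusted over all 17097 genes by Benjamini-Hochberg, was under 0.05. The array medians lay between 7.8 and 8.7. The 75th percentile was 37.6 on GFPdim 1 and 40.6 to 52.1 on the others. To mark where signal ends, 84 probe sets for receptors of smell and taste were used, with a 95th percentile of 7.61. The mean of every member was above it in all 4 groups. Lgr5 itself had 479 to 687 on hair follicle arrays, 4.8 to 6.8 on villus arrays, 12.6 to 66.1 on GFPdim arrays and 533 to 793 on GFPbright arrays. The intestinal arrays thus followed their titles, while the hair follicle arrays, titled GFPdim but labelled high for Lgr5, had levels that overlapped those of GFPbright. For GFPdim 2, GFPdim 3 and GFPbright 2 the label on Lgr5 level contradicts the title, and results are also given without these 3 arrays. GFPdim is then GFPdim 1 alone, so that in its comparisons the spread comes from the other groups and the lone array is assumed to vary like them. The same label reads high for the villus arrays, on which Lgr5 was below 7.61. Hair follicle and keratinocyte markers summed to 21916 to 27083 on hair follicle arrays and to at most 1085 elsewhere, and enterocyte markers to 57448 to 60373 on villus arrays.

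The promoters of the members on which the results turn are printed for their sequence, from RefSeq on build GRCm38.p6. Each window holds 130 bases before and 20 bases after the annotated start, 5′ to 3′ on the strand of the gene. Mrps27 lies at chr13:99344656-99344805 on the plus strand, Mrps22 at chr9:98601660-98601809 on the minus strand, Mrpl34 at chr8:71464796-71464945 on the plus strand and Mrpl12 at chr11:120484507-120484656 on the plus strand. Mrps31 lies at chr8:22411210-22411359 on the plus strand, Mrps6 at chr16:92058206-92058355 on the plus strand and Mrps36 at chr13:100744640-100744789 on the minus strand. Capitals mark matches on either strand to the motif of NRF1 (GCGCA and GCGC with any 1 base between them), of GABP, an ETS factor (CCGGAAG), or of YY1 (AANATGGC), 3 factors known for their sites in promoters of mitochondrial protein genes.
Mrps27: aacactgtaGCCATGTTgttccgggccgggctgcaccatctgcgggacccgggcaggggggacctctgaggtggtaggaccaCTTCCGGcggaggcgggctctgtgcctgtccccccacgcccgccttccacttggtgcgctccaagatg
Mrps22: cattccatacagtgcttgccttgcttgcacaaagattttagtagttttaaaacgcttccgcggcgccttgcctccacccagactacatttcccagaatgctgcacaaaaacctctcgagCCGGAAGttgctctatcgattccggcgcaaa
Mrpl34: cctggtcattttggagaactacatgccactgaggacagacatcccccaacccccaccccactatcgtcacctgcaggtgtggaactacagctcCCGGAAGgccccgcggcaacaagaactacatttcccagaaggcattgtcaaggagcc
Mrpl12: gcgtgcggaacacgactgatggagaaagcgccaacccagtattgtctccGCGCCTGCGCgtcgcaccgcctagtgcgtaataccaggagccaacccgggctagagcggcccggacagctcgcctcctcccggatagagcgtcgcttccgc
Mrps31: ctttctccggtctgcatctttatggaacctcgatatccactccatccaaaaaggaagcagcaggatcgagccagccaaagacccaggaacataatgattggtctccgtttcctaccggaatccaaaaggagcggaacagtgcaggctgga
Mrps6: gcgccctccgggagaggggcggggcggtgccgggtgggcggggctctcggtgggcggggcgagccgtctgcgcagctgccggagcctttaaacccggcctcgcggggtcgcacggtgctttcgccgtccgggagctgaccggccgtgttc
Mrps36: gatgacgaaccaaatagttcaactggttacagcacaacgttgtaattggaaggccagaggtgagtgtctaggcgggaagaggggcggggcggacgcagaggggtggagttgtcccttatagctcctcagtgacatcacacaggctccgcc

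Mrps27 had a GABP match that began 48 bases before the start and a YY1 match 121 bases before it. The GABP match began 11 bases before the start of Mrps22 and 37 bases before that of Mrpl34, and the NRF1 match of Mrpl12 began 81 bases before its start. The windows printed for Mrps31, Mrps6 and Mrps36 held none of these letters. Over the full window of 250 bases before to 50 after the start, 65 members matched the table, with 71 promoters in all. Mrpl4, Mrpl13, Mrpl15, Mrpl19, Mrpl38, Mrpl54, Mrps34 and Mrps35 were not matched. A GABP match stood in 23 of the 71 member promoters (32.4%), against 2209 of the 16953 promoters of all tested genes and 8.86% of all 32851 promoters in the table. A YY1 match stood in 20 (28.2%), against 6.80% for tested genes and 6.05% for the whole table. NRF1 was matched in 12 (16.9%), against 7.23% and 4.60%. The E-box CACGTG, a site of MYC, was found in 6 (8.45%), against 8.72% and 7.15%. Among these 6 are the 3 neighbouring starts of Mrpl2, whose windows overlap and hold the same E-box. At least 1 of the first 3 motifs was present in 43 member promoters (60.6%), against 23.7% of tested genes' promoters and 17.4% of all promoters, and no 2 different motifs overlapped in a member promoter. These matches describe letters in the window and are no evidence of binding. The median expression difference was -1.11 for the 43 members with a match and -1.27 for the 22 without in villus against GFPbright, and in hair follicle against GFPbright -1.64 for those with and -1.94 for those without. Whether members with and without a match differ was not tested.

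Many members also start beside another gene that is transcribed away from them. Of the 65 members with a mapped start, 24 (36.9%) had such a neighbour within 1000 bases, against 2181 of 13514 tested genes (16.1%). Mrpl46 and Mrps11, a member of each subunit, start 42 bases apart. Among the other neighbours were Sars2, the mitochondrial seryl-tRNA synthetase, 147 bases from Mrps12, Twnk, the helicase of mitochondrial DNA, 116 bases from Mrpl43, and Ndufb5, a complex I subunit, 308 bases from Mrpl47.

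**Figure D1:**
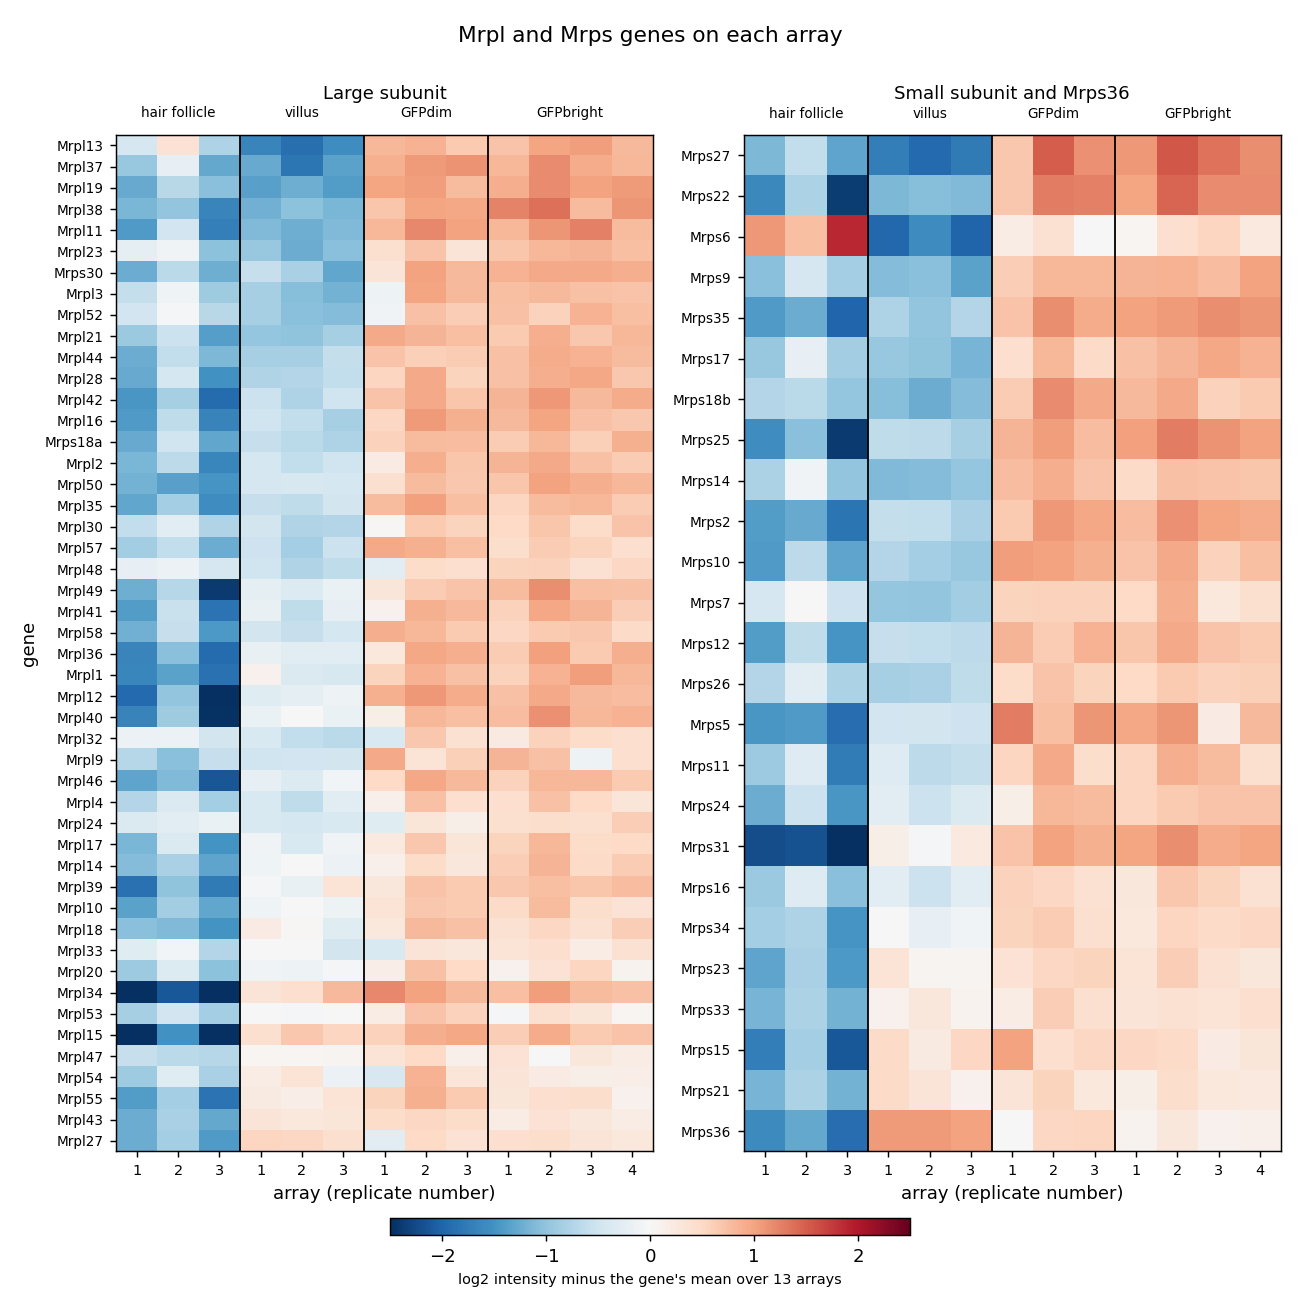
Log2 intensity of each of the 73 members (rows) on each of the 13 arrays (columns, grouped by cell population), as the difference from the gene's own mean over the arrays; rows are ordered by the difference between villus and GFPbright, and values beyond the scale take its end colours. GFPdim and GFPbright columns are red for nearly every member, hair follicle columns are blue except for Mrps6 and, on hair follicle 2, Mrpl13, and villus columns run from blue at the top of each panel to white and pale red at the bottom, where Mrps36 stands.

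The first step out of the stem cell state was examined by setting GFPdim against GFPbright. No member was called in either direction, whereas 6.32% of all genes were called higher and 10.4% lower in GFPdim (16.7% in all). The median difference of the members was -0.06, beside -0.04 for all genes, and 33 members had positive and 40 negative differences, none beyond -0.41 or 0.39. With limma, 3 of 73 passed an unadjusted p of 0.05, as did 4859 of all 17097 genes. The 95% intervals of all members lay between -0.94 and 0.79, so a doubling or halving lay outside each of them. Relative to each gene's mean, the median member stood at 0.52, 0.83 and 0.66 on the GFPdim arrays, against 0.62, 0.83, 0.67 and 0.67 on the GFPbright arrays.

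Mrpl24, a large subunit protein with a bacterial counterpart, came closest to a call, at 514, 785 and 701 in GFPdim against 829, 859, 830 and 968 in GFPbright. All GFPdim arrays lay below all GFPbright arrays, with a difference of -0.41 (SE 0.14, adjusted p = 0.061). Mrpl14, another such protein, measured 199.9, 251 and 223 in GFPdim against 281, 329, 257 and 284 in GFPbright (difference -0.36, SE 0.14, adjusted p = 0.100). Mrpl57, a subunit that exists in mitochondria only, went the other way, with 746, 715 and 649 in GFPdim against 525, 597, 564 and 515 in GFPbright (difference 0.35, SE 0.15, adjusted p = 0.130). The groups did not overlap for any of these genes, but none passed the threshold. Over the members, 3 did not overlap and were higher and 4 did not overlap and were lower, where 9.28% and 17.2% of all genes did so. Without the 3 arrays of conflicting label, with GFPdim 1 alone and its spread assumed, 4 members were called lower (Mrpl24, Mrpl32, Mrpl48 and Mrpl52), as were 1873 of all genes. Mrpl24 alone was called without GFPdim 2. The same held with a random block for a number shared between titles, read as a sort code (adjusted p = 0.040). Of all genes, 1080 were called higher and 1773 lower, and after a further quantile normalization 1386 and 1404. The intestinal stem cell markers Lgr5, Ascl2, Olfm4, Smoc2 and Tnfrsf19 were all called lower in GFPdim in the same fit. Enterocyte markers summed to 7816 to 11894 in GFPdim and 1874 to 2982 in GFPbright, with 9 of 9 higher in GFPdim. Goblet cell markers summed to 21637 to 24120 in GFPdim and 1055 to 2335 in GFPbright, with 6 of 6 higher in GFPdim. Enteroendocrine markers summed to 4549 to 5656 in GFPdim and 154 to 294 in GFPbright, with 7 of 7 higher, and the Paneth cell markers to 5025 to 9240 in GFPdim and 711 to 1438 in GFPbright, with 2 of 3 higher. Their part in the members' values was not tested.

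Between villus and GFPbright, the last and first stages of the intestinal lineage, most members were lower in villus. There 58 of 73 were called lower and 1 higher, against 26.3% and 22.6% of all genes (48.9% in all). With every probe set tested, 91 of the 129 that name a member alone were called lower and 3 higher. Of all 28898 probe sets 23.5% were called lower and 21.7% higher. The median difference of the members was -1.14, beside 0.02 for all genes. In 61 members every villus array was below every GFPbright array, which held for 28.1% of all genes. As a bulk measurement this cannot tell fewer cells of a type from less RNA per cell.

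Mrps27, a protein of the small subunit found in mitochondria only, showed the largest difference. It measured 8.4, 7.2 and 8.2 in villus against 59.1, 81.5, 71.6 and 61.9 in GFPbright. With 1 villus array below 7.61, where signal ends, and set to it, Mrps27 was at least 8.43-fold lower in villus (fitted difference -3.10, SE 0.20, adjusted p = 1.26e-08). Mrpl13, a large subunit protein with a bacterial counterpart, had 110, 93.7 and 118 in villus against 568, 685, 713 and 603 in GFPbright, 5.99-fold lower in villus (-2.58, SE 0.21, adjusted p = 1.04e-07). Mrpl37, specific to mitochondria, had 33.6, 22.9 and 31.9 in villus against 143, 183, 153 and 143 in GFPbright (-2.41, SE 0.22, adjusted p = 2.96e-07). Both were well separated, with the highest villus array far below the lowest GFPbright array. Mrpl19, a large subunit protein with a bacterial counterpart, averaged 51.6 ± 3.38 in villus and 266 ± 19.9 in GFPbright (SD, n = 3 and 4; -2.37, SE 0.14, adjusted p = 3.62e-09). Mrps22, a small subunit protein specific to mitochondria, averaged 85.1 ± 2.06 in villus and 421 ± 57.8 in GFPbright (-2.30, SE 0.28, adjusted p = 6.35e-06).

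**Figure D2:**
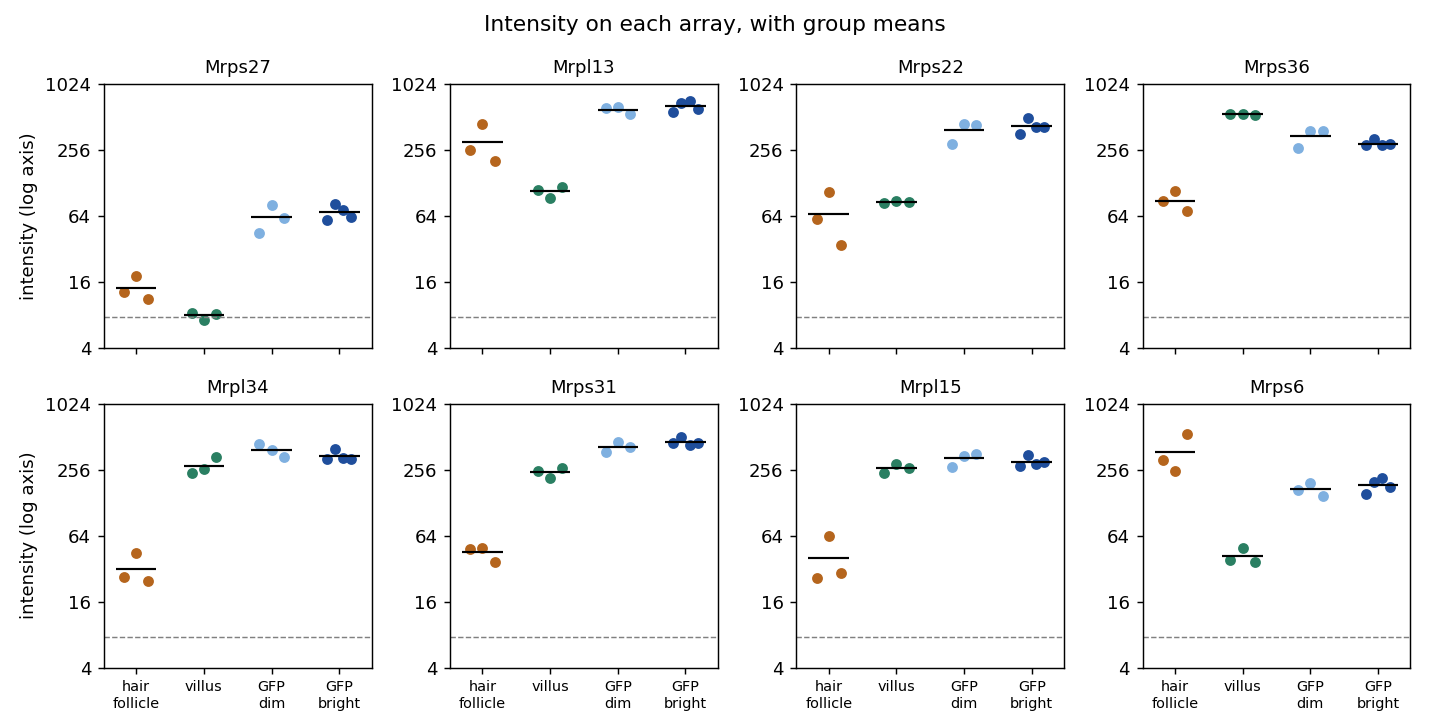
Intensity (log axis) on each array for 8 members, with 1 point an array and a black line at the group mean; the dashed line is the level at which signal ends, 7.61. Mrps27 is at that line in villus, Mrpl34, Mrps31 and Mrpl15 are lowest on the hair follicle arrays, and Mrps6 and Mrps36 separate hair follicle from villus in opposite directions.

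Mrps36 was the single member called higher in villus. Despite its symbol it is known as a component of the alpha-ketoglutarate dehydrogenase complex of the citric acid cycle and not of the assembled ribosome. It had 545, 546 and 530 in villus against 281, 319, 281 and 286 in GFPbright, 1.86-fold higher in villus with no overlap (0.89, SE 0.16, adjusted p = 0.000241). The other 14 members that were not called spanned differences of -0.49 (Mrpl33) to 0.12 (Mrpl27). They were Mrpl15, Mrpl20, Mrpl27, Mrpl33, Mrpl34, Mrpl43, Mrpl47, Mrpl53, Mrpl54, Mrpl55, Mrps15, Mrps21, Mrps23 and Mrps33. Among them Mrpl27, a protein near the peptidyl transferase centre in bacteria, averaged 565 ± 29.5 in villus and 520 ± 30.6 in GFPbright (SD, n = 3 and 4), and the groups overlapped. The call is a matter of degree at its edge: Mrpl18 at -0.49 passed (adjusted p = 0.024) and Mrpl33 at -0.49 did not (adjusted p = 0.059).

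The fall in villus was present in both subunits and in both kinds of protein. In the large subunit 22 of 29 proteins with a bacterial counterpart and 16 of 19 specific to mitochondria were called lower, with medians of -0.98 and -1.14. In the small subunit the numbers were 12 of 14 and 8 of 10, with medians of -1.41 and -1.57. Whether these groups differ from each other was not tested. Set against GFPdim, villus again had 55 members lower and 1 higher (Mrps36), against 21.3% and 20.8% of all genes (42.1% in all), with a median of -1.11, and 53 members were lower in villus than in both crypt populations, as were 19.2% of all genes. Mrps27 at 44.6, 80.0 and 61.6, Mrpl37 at 149, 170 and 176 and Mrpl13 at 616, 627 and 539 in GFPdim were all above every villus array, and villus was at least 7.49-fold, 5.66-fold and 5.55-fold lower. Without the 3 arrays of conflicting label, against GFPdim 1 alone with its spread assumed, 38 members were lower and 2 higher (Mrps36 and Mrpl27), with a median of -0.89, beside 15.2% and 19.6% of all genes. In the same setting against GFPbright, 58 were lower and 1 higher, beside 25.7% and 21.4% of all genes.

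Several values moved with this comparison. The 15 proliferation genes were all lower in villus, with sums of 695 to 850 there and 9113 to 10248 in GFPbright, and a median difference of -4.93. Lymphocyte markers summed to 1684 to 2413 in villus and to 37.5 to 49.9 in GFPbright, with 6 of 7 higher in villus and Cd2 below 7.61 in both. Of the mesenchyme and endothelium markers 5 of 10 were higher and 1 lower in villus, with sums of 70.3 to 315 there and 54.5 to 125 in GFPbright. The immediate early and heat shock genes summed to 3300 to 4495 in villus and 11625 to 18560 in GFPbright, with 11 of 12 lower in villus. All 6 goblet and all 7 enteroendocrine markers were higher in villus, with sums of 22382 to 23824 and 1435 to 2224 there, against 1055 to 2335 and 154 to 294 in GFPbright. Their part in the members' difference was not tested.

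The 2 tissues with Lgr5 cells were compared by setting hair follicle against GFPbright. Here the difference reached every member: 72 of 73 were called lower and 1 higher in hair follicle, against 29.1% and 19.4% of all genes (48.6% in all). With every probe set tested, 108 of the 129 that name a member alone were called lower and 1 higher. Of all 28898 probe sets 25.2% were called lower and 19.1% higher. The median difference of the members was -1.71, beside -0.06 for all genes. For all 72 the hair follicle arrays lay below all GFPbright arrays, as they did for 31.1% of all genes.

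Mrpl34, a small basic protein of the large subunit with a bacterial counterpart, fell the most, to 26.9, 44.2 and 24.7 in hair follicle against 322, 396, 329 and 319 in GFPbright. All hair follicle arrays were below all GFPbright arrays (-3.46, SE 0.19, adjusted p = 2.29e-09). Mrps31, of the small subunit and specific to mitochondria, had 48.7, 49.7 and 37.1 in hair follicle against 446, 503, 426 and 446 in GFPbright, 10.2-fold lower in hair follicle (-3.34, SE 0.13, adjusted p = 5.83e-11). Mrpl15, a large subunit protein with a bacterial counterpart, had 26.5, 64.0 and 29.3 in hair follicle against 278, 345, 286 and 299.7 in GFPbright (-3.03, SE 0.24, adjusted p = 9.89e-08). In all 3 the hair follicle arrays were far below the crypt arrays, and hair follicle 2 was the highest of them. Mrps22 averaged 66.3 ± 35.2 in hair follicle and 421 ± 57.8 in GFPbright (-2.80, SE 0.28, adjusted p = 9.73e-07). Mrps25, also of the small subunit, averaged 31.3 ± 13.7 in hair follicle and 199 ± 17.3 in GFPbright (SD, n = 3 and 4; -2.77, SE 0.23, adjusted p = 1.60e-07).

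Mrps6 was the exception. This small subunit protein, with a bacterial counterpart, had 313, 249.5 and 545 in hair follicle against 154, 199, 214 and 176 in GFPbright, 1.90-fold higher in hair follicle with no overlap (0.92, SE 0.23, adjusted p = 0.00325). Its locus overlaps Slc5a3, a myo-inositol transporter gene, and 3 further probe sets name both genes and were not used. A probe set of Slc5a3 alone had 11.4, 9.7 and 13.7 in hair follicle and 4.1 to 5.7 in GFPbright, all hair follicle arrays being above all GFPbright arrays. Slc5a3 was looked up after the values of Mrps6 had been seen. How far the 2 transcripts share the signal was not tested.

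By kind of protein, 29 of 29 and 19 of 19 in the large subunit were lower in hair follicle, with medians of -1.68 for those with a bacterial counterpart and -1.82 for those specific to mitochondria. In the small subunit 13 of 14 with a bacterial counterpart were lower and 1 higher, and 10 of 10 specific to mitochondria were lower, with medians of -1.65 and -1.96. The smallest falls were those of Mrpl32 (-0.68), Mrpl33 (-0.70), Mrpl24 (-0.73) and Mrpl48 (-0.77), all of the large subunit.

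Against GFPdim, 69 members were lower and 1 higher (Mrps6) in hair follicle, against 25.2% and 21.0% of all genes (46.2% in all), with a median of -1.75, and the same 69 were lower than in GFPbright too, as were 21.7% of all genes. In 65 members all hair follicle arrays were below all GFPdim arrays, as in 27.2% of all genes. Mrpl12, the stalk protein that contacts translation factors, entered the 5 largest falls here, with 97.8, 189 and 63.5 in hair follicle against 697, 801 and 712 in GFPdim. Its difference was 6.97-fold with no overlap (-2.80, SE 0.27, adjusted p = 9.06e-07). Mrpl34, Mrps31 and Mrpl15 led again, at -3.64, -3.20 and -3.13 (SE 0.21, 0.14 and 0.26), and Mrps6 was 2.07-fold higher in hair follicle. The members not called were Mrpl24 (-0.32), Mrpl32 (-0.48) and Mrpl33 (-0.45). Without the 3 arrays of conflicting label, the median against GFPdim 1, the lone GFPdim array left, was -1.59. In the same setting 72 were lower and 1 higher than in GFPbright, beside 28.4% and 18.6% of all genes. Both hair follicle comparisons, like those of villus, share their crypt arrays with the others and are not independent of them.

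The hair follicle arrays differed among themselves in the same genes. The median member stood at -1.18, -0.65 and -1.37 relative to its mean over all arrays on hair follicle 1, 2 and 3, against -0.45, -0.61 and -0.46 on the villus arrays. Hair follicle 2, the highest, carries the same number in its title as GFPdim 2 and GFPbright 3, read here as a code of the sort. The proliferation genes summed to 3411, 4565 and 2551 on the same hair follicle arrays, against 9113 to 10248 in GFPbright, and 14 of 15 were lower in hair follicle, with a median of -3.96. The immediate early and heat shock genes summed to 58615, 51568 and 68146 there, against 11625 to 18560 in GFPbright, and all 12 were higher. Melanocyte markers summed to 735 to 953 in hair follicle and to 47.5 to 68.3 in GFPbright, with 4 of 6 higher, and 3 of 10 mesenchyme and endothelium markers were higher. Their part in the members' difference was not tested. Leaving out hair follicle 2 moved the median against GFPbright to -1.92, and leaving out hair follicle 3 to -1.55. With hair follicle 3 left out 70 members were lower, beside 26.8% of all genes.

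**Figure D3:**
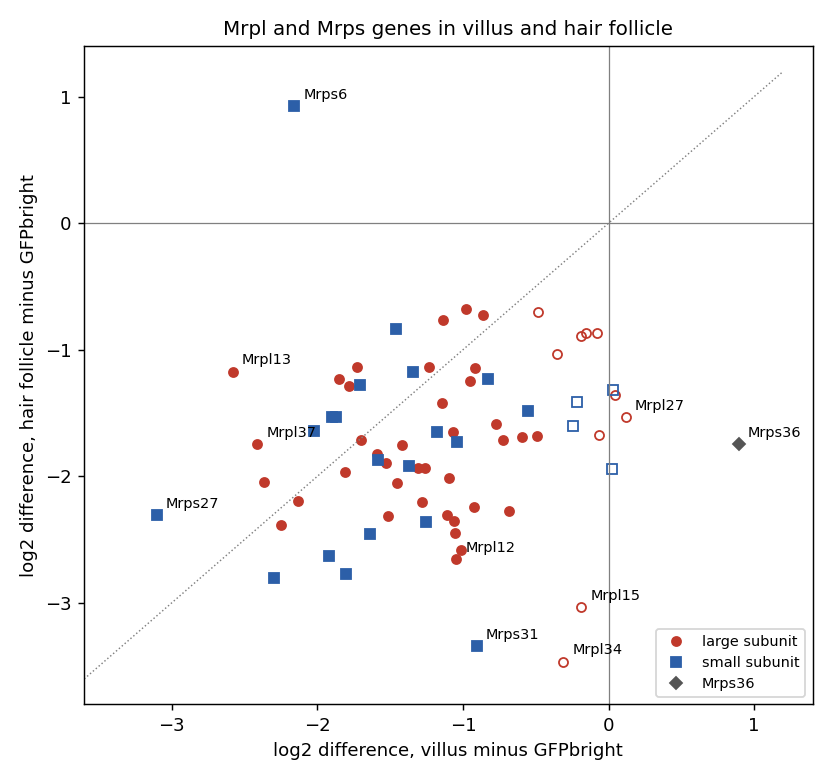
Log2 difference of each member in villus against GFPbright (x axis) and in hair follicle against GFPbright (y axis), with open symbols for members not called in villus and a dotted line where both are equal; both axes use the same GFPbright arrays. The cloud lies below 0 on the y axis except for Mrps6, and the 14 open symbols lie between -0.49 and 0.12 on the x axis, with Mrps36 to their right at 0.89.

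Side by side, the differences of the members from the shared GFPbright arrays fell into 4 patterns. Since the arrays are shared, calls in both tissues are not independent. In 57 members both villus and hair follicle were lower, as in 15.5% of all genes. In 14 members hair follicle was lower and villus not called, as in 6.53% of all genes, with hair follicle differences of -3.46 (Mrpl34) to -0.70 (Mrpl33). Mrps6 was lower in villus and higher in hair follicle, and Mrps36 higher in villus and lower in hair follicle.

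Hair follicle and villus were then compared directly. In hair follicle 40 members were lower and 7 higher, against 27.4% and 26.9% of all genes (54.3% in all), with a median of -0.63 beside -0.04 for all genes. With every probe set tested, 56 of the 129 that name a member alone were lower and 17 higher. The groups did not overlap in 36 members with hair follicle lower and in 9 with hair follicle higher, against 30.7% and 29.0% of all genes. Of the 14 members not called in villus, 13 were lower in hair follicle than in villus, Mrpl33 being the exception at -0.22. These 14 were picked on the same arrays, by a fall in hair follicle and no call in villus. That hair follicle lay below villus in them largely follows from this and is no separate result. Of the 57 members lower in both, 26 were lower in hair follicle, 6 higher and 25 not called. The ratio of the directions depends on scaling, since a further quantile normalization gave 35 lower and 15 higher, beside 27.0% and 27.9% of all genes.

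Mrpl34 had 26.9, 44.2 and 24.7 in hair follicle against 239, 258 and 335 in villus, 8.89-fold lower in hair follicle (-3.15, SE 0.21, adjusted p = 8.06e-09). Mrpl15 had 240, 289.5 and 266 in villus, above every hair follicle array (-2.85, SE 0.26, adjusted p = 2.63e-07). Mrps31 had 249, 216 and 266 in villus (-2.44, SE 0.14, adjusted p = 2.41e-09). In each of these genes the groups did not overlap, and for Mrpl34 and Mrpl15 villus was not called against GFPbright. Mrps36, at 86.7, 108 and 70.0 in hair follicle and 530 to 546 in villus, was 6.23-fold lower in hair follicle (-2.64, SE 0.17, adjusted p = 5.95e-09). Mrps15, of the small subunit with a bacterial counterpart, averaged 66.6 ± 31.4 in hair follicle and 245 ± 25.6 in villus (SD, n = 3 each; -1.97, SE 0.26, adjusted p = 1.17e-05).

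In the opposite direction Mrps6 had 313, 249.5 and 545 in hair follicle against 38.2, 49.7 and 37.1 in villus, 8.45-fold higher in hair follicle (3.08, SE 0.24, adjusted p = 5.25e-08). Mrpl13 had 256, 440 and 203 in hair follicle against 110, 93.7 and 118 in villus (1.41, SE 0.22, adjusted p = 7.64e-05). Mrps27, with 12.8, 18.1 and 11.2 in hair follicle, was at least 1.70-fold above its villus values (fitted difference 0.80, SE 0.22, adjusted p = 0.00639), but with 16 added to each intensity the difference was 0.32 and was not called. In all 3 genes the groups did not overlap. Mrpl37 (0.67, SE 0.23, adjusted p = 0.0249) and Mrpl23 (0.62, SE 0.20, adjusted p = 0.0178), a protein near the exit of the peptide tunnel, overlapped between hair follicle and villus. The other 2 higher members were Mrpl52 (0.59) and Mrps7 (0.62). Without hair follicle 2, and likewise without villus 2, only Mrpl13, Mrps6, Mrps7 and Mrps27 were called higher, beside 25.7% and 25.4% of all genes.

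The machinery around the ribosome was read from lists of genes chosen by function. Beside each list, 26.3% of all genes were called lower and 22.6% higher in villus than in GFPbright. In hair follicle the shares were 29.1% lower and 19.4% higher. The 4 measured ribosome subunits with other symbols, Dap3, Chchd1, Ptcd3 and Gadd45gip1, were all lower in villus (-1.54 to -2.32) and in hair follicle (-1.18 to -2.30) than in GFPbright, and none was called in GFPdim. Of 22 assembly factors, which modify ribosomal RNA and build the subunits, 18 were lower and 1 higher in villus, and 17 lower in hair follicle, with medians of -1.25 and -1.26. Noa1, a GTPase of small subunit assembly, was 11.3-fold lower in villus and 5.73-fold lower in hair follicle. Trub2, a pseudouridine synthase of mitochondrial RNA, was the factor higher in villus, at 174, 152 and 145 there against 43.0, 51.4, 78.1 and 48.9 in GFPbright (1.54, SE 0.28, adjusted p = 0.000323).

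Of 13 translation factors, 9 were lower in villus and 11 in hair follicle, with medians of -1.09 and -1.61. Lrpprc, which stabilises mitochondrial messages, had 54.4, 54.7 and 55.6 in villus, 46.6, 46.8 and 25.3 in hair follicle and 265 to 356 in GFPbright. It fell by 2.45 in villus and by 2.98 in hair follicle on the log2 scale, with no overlap with GFPbright. Of 15 aminoacyl-tRNA synthetases of the mitochondrion, 14 were lower in villus and 14 in hair follicle, with medians of -1.01 and -1.35. Among 6 genes of mitochondrial transcription 5 were lower in each tissue, led by Tfam, the factor that packages mitochondrial DNA, which fell by 2.28 in villus and by 3.08 in hair follicle. Mterf2 alone was higher in villus (1.47, SE 0.17).

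The products of these ribosomes join nuclear-encoded subunits in the respiratory chain and ATP synthase. Of 75 such nuclear genes, 10 were lower and 13 higher in villus, with a median of 0.05, while 68 were lower and 0 higher in hair follicle, with a median of -1.43. The shares of all genes were 26.3% lower and 22.6% higher in villus, and 29.1% and 19.4% in hair follicle. In hair follicle against villus 66 of these subunits were lower and 2 higher, against 27.4% and 26.9% of all genes. Cyc1, cytochrome c1 of complex III, fell by 2.51 in hair follicle, and Sdhb, a subunit of complex II, was higher in villus (0.69, SE 0.15). Cytosolic ribosomal proteins showed a different picture. Their list was drawn from Rpl and Rps symbols only. All 65 on it were lower in villus, with a median of -2.52 and differences of -4.71 to -1.15. In hair follicle only 9 were lower and 0 higher, with a median of -0.19. The difference between the members and either list was not tested.

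**Figure D4:**
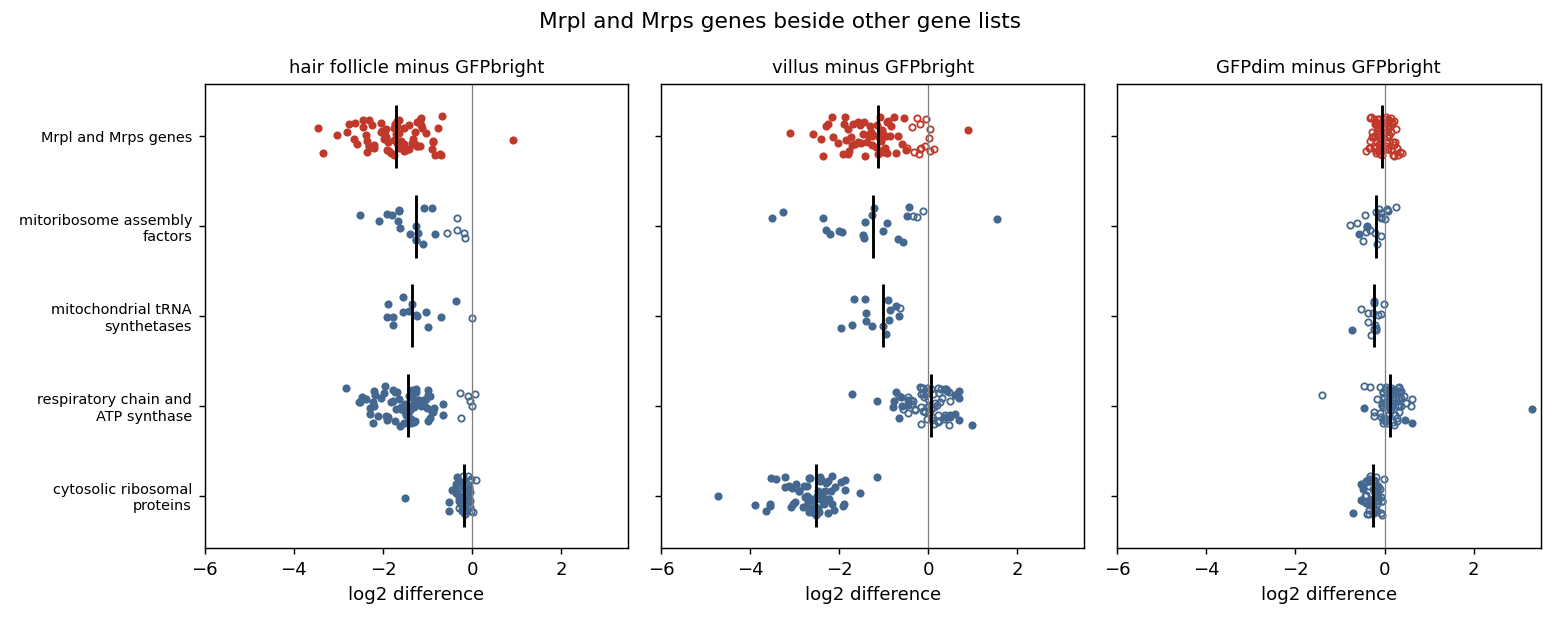
Log2 difference from GFPbright of each gene (points, filled where called) in 5 lists, in hair follicle, villus and GFPdim, with a black bar at the median of each list; Cox7a1, at 5.61 in villus, lies outside the plotted range. The members have medians of -1.71 in hair follicle, -1.14 in villus and -0.06 in GFPdim, the respiratory chain subunits of -1.43 in hair follicle and 0.05 in villus, and the cytosolic ribosomal proteins of -0.19 in hair follicle and -2.52 in villus.

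The neighbours that share a start region with a member were chosen by position, and those named were picked after their values were seen. Of 20 tested neighbours that are not members themselves, 12 were lower and 1 higher in villus than in GFPbright, and 14 lower and 0 higher in hair follicle. The shares of all genes were 26.3% and 22.6% in villus, and 29.1% and 19.4% in hair follicle. Twnk had 38.5, 50.9 and 54.0 in villus against 210, 247, 210 and 236 in GFPbright (-2.25, SE 0.25, adjusted p = 2.57e-06). Its partner Mrpl43, a large subunit protein specific to mitochondria, had 354, 340 and 350 in villus against 322, 364, 345 and 324 in GFPbright, a difference of 0.04 that was not called. Tcp1, a subunit of the cytosolic chaperonin that starts 238 bases from Mrpl18, fell by 2.57 in villus, against -0.49 for Mrpl18. Klc4, a kinesin light chain 141 bases from Mrpl2, was the neighbour higher in villus (2.04, SE 0.19), where Mrpl2 fell by 1.31.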

How the data were processed

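Probe set intensities of 13 Affymetrix HT MG-430 PM arrays were deposited by the authors on a linear scale, after background correction, normalization across arrays and summarisation of the probes with the RMA-sketch method of Affymetrix Power Tools (version not given in the sources used here). No counts or sequencing depth exist for arrays, so the number of arrays limits the precision. Scanner files were not used here.

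The intensities were turned to log2 with no further scaling. Of 45141 probe sets, 28898 named 1 gene, 551 named several and 15692 had no entry in the name table. Each of 17097 genes was read from its single-gene probe set of highest mean, and 38 of the 73 members had more than 1 such probe set. One model with a mean per group was fitted to all arrays with limma 3.58.1 in R 4.3.3 (lmFit and eBayes), and 6 comparisons were drawn from it. Groups came from the sample titles. The methods call the arrays biological replicates.

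Except for villus, the titles hold a number that the labels do not explain, read here as a code of the sort. It is shared by 3 pairs of GFPdim and GFPbright arrays, with residual correlations of 0.291, 0.451 and 0.320. Arrays without a shared number were not set beside these pairs, so the values cannot show that the number marks a common sort. Hair follicle 2 shares its code with GFPdim 2 and GFPbright 3, and the random block holds all 3. Members with full values were, per comparison, the 5 called with the largest difference in each direction and those called against the majority. From each other list up to 4 called genes per direction were named. The members and lists were chosen with earlier results of these data known. Promoters were searched with Python 3.11.15 in a RefSeq table, and figures drawn with matplotlib 3.10.9. The fit was tested on simulated data. Alternatives were a further quantile normalization, median centring, 16 added to each intensity, a filter on low values, the mean of all probe sets of a gene, every probe set tested, only the arrays of the groups compared, a trended and robust fit, blocks for the sort, each array left out and, chosen after seeing the data, the 3 arrays with contradicting labels left out.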

Additional observations from a re-analysis of the deposited data

Results flagged for a closer look

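In GFPbright, array 2 stood apart from the other 3 for Mrpl34 and Mrps36. For Mrpl34 it measured 396 beside 319 to 329, a gap of 0.868 of the range of the group. For Mrps36 it measured 319 beside 281 to 286, a gap of 0.866 of the range. Both exceeded Dixon's critical value for 4 arrays, which chance passes in about 1 in 20 groups, and 2 of 18 groups of 4 did so here. GFPbright 2 is also the GFPbright array whose labels contradict each other. Leaving it out changed no call of either gene.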

How the results depend on the processing

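Of the counts and medians of the members under the alternatives, 403 stayed within the limits set for a move and 14 did not, and of the 6 medians only that of GFPdim against GFPbright changed sign. This median, -0.06 as reported, turned positive with quantile normalization (0.02), with the sort as a fixed block (0.01), without GFPdim 1 (0.06) and without GFPbright 2 (0.01). Members lower in GFPdim than in GFPbright numbered 1 (Mrpl24) with 16 added to each intensity or with the sort as a random replicate block, 0 to 1 with each array left out, and 4 without the 3 arrays of contradicting label. With the sort as a fixed replicate block over the 6 paired arrays, 0 members were called in either direction, with a median of 0.01, and no other call count of the members changed under the block. The median of villus against GFPbright was -1.01 with 16 added and -0.99 for the mean of all probe sets, where 2 members were higher (Mrpl27 and Mrps36). Against GFPdim it was -0.92 with 2 higher for the mean of all probe sets, and -0.89 with 2 higher without the 3 arrays. Members higher in hair follicle than in villus numbered 15 after quantile normalization, beside 27.9% of all genes. With each array left out they numbered 4 to 10, the 4 arising without hair follicle 2 and without villus 2. The cause of these moves was not tested.

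Among single genes, 842 results kept their side of the threshold, 4 gained it (Mrpl24 in GFPdim, -0.76 to -0.40) and 8 lost it, all in hair follicle against villus and for Mrpl23, Mrpl37 and Mrps27. Median centring moved the median of all genes in hair follicle against GFPdim to -0.16, beside -0.05 without it. With each array left out, the member medians spanned -0.15 to 0.06 in GFPdim against GFPbright, -1.92 to -1.55 in hair follicle against GFPbright and -0.86 to -0.40 in hair follicle against villus. Precision is limited by 3 or 4 arrays a group, and for Mrps27 in villus and Mrpl47 in hair follicle by signal near 7.61. Mrpl47 had 8.4, 7.9 and 7.6 in hair follicle, at least 1.82-fold below GFPbright.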

Other observations

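Regulators of nuclear genes for mitochondrial proteins moved in different directions. Of 8 on the list, 5 were lower and 1 higher in villus than in GFPbright, and 2 lower and 2 higher in hair follicle. The shares of all genes were 26.3% and 22.6% in villus, and 29.1% and 19.4% in hair follicle. Myc, a transcription factor of growth genes, averaged 13.5 in villus, 1102 in hair follicle and 375 in GFPbright, with differences of -4.88 in villus and 1.53 in hair follicle. Esrra, a nuclear receptor acting on genes of oxidative metabolism, averaged 405 in villus, 35.4 in hair follicle and 135 in GFPbright, with differences of 1.59 and -1.94. The coactivator Ppargc1b differed by -3.46 in hair follicle, and Pprc1, a related coactivator, by -4.27 in villus. Among the factors whose motifs were searched, Nrf1 was lower in villus (-0.51), Gabpb1 was lower in villus (-1.03), and Yy1 was lower in villus (-0.56) and higher in hair follicle (0.67). Gabpa, the other GABP gene on the list, was not called in villus or in hair follicle. In GFPdim against GFPbright Myc (-1.43) and Pprc1 (-0.58) were lower, and Esrra (0.72) and Ppargc1b (0.41) higher.

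The 6 probe sets that name a member together with another gene were not used in any comparison. The 3 of Mrps6 and Slc5a3 had their highest values in hair follicle, at 231 to 368 on one, 215 to 348 on another and 462 to 977 on the third, against 25.9 to 50.8, 64.9 to 132 and 281 to 402 in GFPbright. In villus the same probe sets lay at 7.4 to 12.8, 9.4 to 17.4 and 83.8 to 90.0. The 3 of Mrps25 and Nr2c2 all overlapped between hair follicle and GFPbright, the brightest with 280 to 359 in hair follicle and 349 to 418 in GFPbright.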
